A study of Rattus norvegicus with 10 samples.

Results

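The integrin and laminin genes described here were found by symbol in a table of rat hippocampal messenger RNA: every symbol beginning with Itga or Itgb, or with Lama, Lamb or Lamc and a digit, except Itgam and Itgb2. This gave 29 genes of 23824 genes and unnamed loci, after the values of loci that share a symbol had been added up in each library. They comprise 11 integrin alpha subunits, 7 integrin beta subunits, 2 laminin alpha chains, 2 laminin beta chains, 3 laminin gamma chains and 4 genes that carry an integrin name but encode no integrin subunit (Itgb1bp1, Itgb1bp2, Itgb3bp and Itgbl1). Of the 29, 21 had a mean of at least 0.5 FPKM and were tested, and 8 did not. FPKM are fragments scaled to transcript length and to the library's mapped fragments, so levels can be set side by side between genes. Members of these families whose symbols were not found in the table used here, such as Itgav, Lama2, Lama4 and Lamb1, are not analysed here.

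The animals were male rats of the Sprague Dawley strain weighing 200 to 240 g, with no genetic change named in the labels and no age given. One group of 5 libraries came from rats with traumatic brain injury (TBI), inflicted as a fluid percussion injury, and the other 5 from rats with sham surgery. All were tested for learning and killed 1 week after surgery, and RNA was taken from the hippocampus. The labels do not say that each library is a separate animal, and the p-values below therefore speak only of how far these libraries varied, part of which may be technical.

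Integrins are cell surface receptors made of an alpha and a beta subunit, and they tie the matrix outside the cell to the actin skeleton inside. Laminins are cross-shaped trimers of an alpha, a beta and a gamma chain and the main adhesive protein of basement membranes. In brain these membranes lie around blood vessels, where astrocyte endfeet meet them, under the pia and below the choroid plexus epithelium.

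Markers of neighbouring tissues differed widely between the libraries. All 8 neuron markers were detected, with a summed level of 2806 to 3629 FPKM across sham and 2068 to 3452 across TBI libraries, and 7 of 9 hippocampal subfield markers were tested (summed level 199 to 535 FPKM). Fibcd1, a marker of one hippocampal field, was listed at 0 in every library. The 14 matched choroid plexus markers, of 15 listed, summed to 105 to 32905 FPKM across sham and 149.9 to 34528 across TBI libraries, and they were lowest in sham 1, sham 4, sham 5 and TBI 2. The 14 matched meninges and fibroblast markers, of 15 listed, summed to 68.2 to 544 FPKM across sham and 70.3 to 683 across TBI libraries, with Col1a2 listed at 0 throughout. They were highest in TBI 1 (683), sham 2 (544) and sham 4 (517), and at most 229.8 FPKM in the other libraries. Igf2 alone held 445, 377 and 244 FPKM of these 3 sums, and 165 of the 229.8 FPKM in TBI 5. A score averaging the log2 deviations of the 12 tested markers was 1.62, 1.15 and 1.81 in TBI 1, sham 2 and sham 4. It was at most -0.24 in the others, so the same 3 libraries led, with sham 4 first. The 10 pericyte and smooth muscle markers were highest in the same 3 libraries, at 311, 184 and 305 FPKM, against 91.9 to 109 in the others. The sum of all FPKM per library lay between 523239 and 629660, and the number of reads behind the values is unknown.

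In none of the 21 tested integrin and laminin genes was a difference between injured and sham hippocampus larger than the spread between libraries, by the tests that follow. By limma's moderated test 0 of the 21 passed a Benjamini-Hochberg adjusted p of 0.05 (0.0% of all 16194 genes and loci tested passed). At an unadjusted p under 0.05 there were 0 of 21 by limma, against 2.91% of all genes and loci, 1.41% higher and 1.51% lower after TBI. In 0 of 21 did the 5 TBI libraries lie wholly above or below the 5 sham libraries, against 0.482% of all genes and loci. An exact permutation test of each gene ran over all assignments of the libraries to the groups. Its smallest possible p is 0.00794, and its smallest unadjusted p among the 21 was 0.0635, for Itgae. Mean log2 levels were higher after TBI for 12 genes (57.1%, beside 50.4% of all genes and loci) and lower for 9. The median log2 difference was 0.10, beside 0.0013 over all genes and loci. This split moved both ways: it was 15 higher and 6 lower with upper quartile scaling, 17 and 4 without sham 4 or with the endothelial score as a covariate, 10 and 11 with array weights or the choroid plexus score, and 9 and 12 without TBI 1. Differences are on the log2(FPKM + 0.5) scale, which understates the change of genes at low levels. For 19 of the 21 genes the whole 95% interval of the difference lay within 1 log2 unit either way, and for 6 within 0.5. The exceptions at 1 unit were Itgb6 and Itga8.

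**Figure D1:**
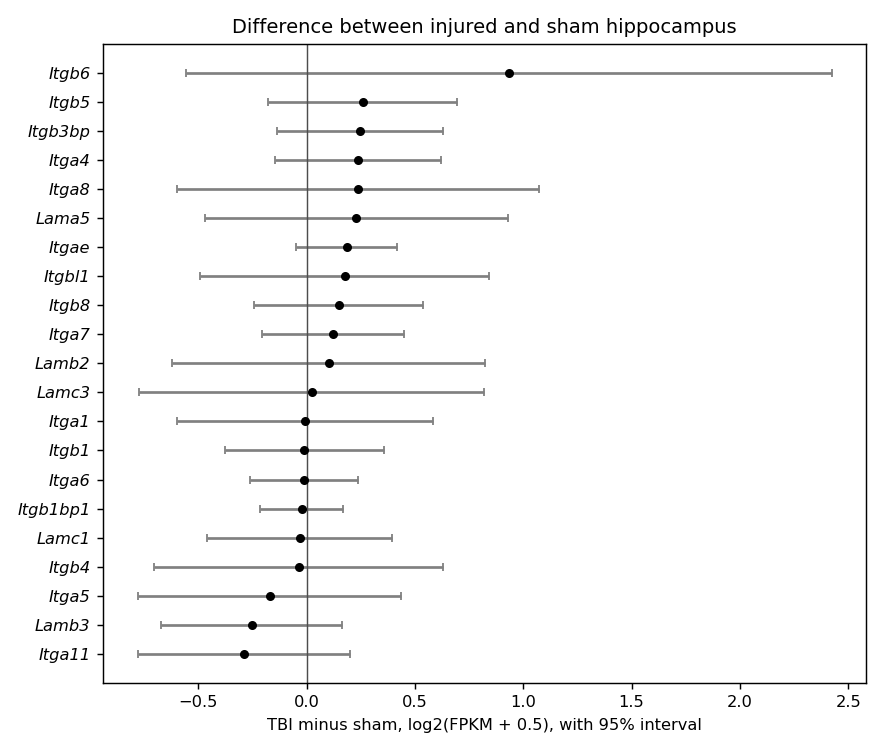
Difference between TBI and sham in log2(FPKM + 0.5) for the 21 tested genes, as the fitted value (point) with its 95% interval (bar), from 5 libraries in each group. Every interval includes 0, and the interval of Itgb6 is the widest, from -0.56 to 2.42.

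Among the integrin subunits analysed here, beta subunits held the most abundant transcripts. Itgb1, the partner of most laminin, collagen and fibronectin binding alpha subunits, was at 21.7, 23.9, 23.1, 35.1 and 26.3 FPKM in sham libraries 1 to 5 and at 36.4, 20.4, 24.7, 23.2 and 24.9 FPKM in TBI libraries 1 to 5. Sham 4 and TBI 1 were high and the other 8 libraries lay between 20.4 and 26.3. The group means were 26.0 ± 5.36 FPKM for sham against 25.9 ± 6.12 FPKM for TBI (SD, n = 5 per group), a log2 difference of -0.011 (95% interval -0.38 to 0.35, SE 0.17) that turned positive, at 0.015 and 0.0086, under quantile and upper quartile scaling. Itgb5, which pairs with the alpha v subunit in a vitronectin receptor, was at 12.7, 22.9, 16.2, 13.9 and 12.9 FPKM in sham libraries 1 to 5 and at 26.6, 13.3, 17.0, 17.5 and 20.2 FPKM in TBI libraries 1 to 5. The groups overlapped, with the highest values in TBI 1, sham 2 and TBI 5. Its log2 difference was 0.26 (95% interval -0.18 to 0.69, SE 0.20), and 4 of 5 TBI libraries lay above the sham mean. Itgb8, another alpha v partner, which astrocytes use to release active TGF-beta from its latent form, was at 13.6, 14.9, 16.1, 11.7 and 13.1 FPKM in sham libraries 1 to 5 and at 22.8, 10.5, 13.9, 14.6 and 17.5 FPKM in TBI libraries 1 to 5. TBI 1 was the highest and TBI 2 the lowest, and the log2 difference was 0.15 (95% interval -0.24 to 0.54, SE 0.18).

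Itgb6, a subunit typical of epithelia that pairs with alpha v, had the widest range of the 21 genes, 119.7-fold from lowest to highest. It was at 0.273, 3.65, 2.03, 0.0452 and 0.404 FPKM in sham libraries 1 to 5 and at 5.41, 0.152, 1.82, 2.34 and 3.51 FPKM in TBI libraries 1 to 5. Within sham it spanned 0.0452 to 3.65, and within TBI 0.152 to 5.41. The group means were 1.28 ± 1.54 FPKM for sham against 2.65 ± 1.96 FPKM for TBI (SD, n = 5 per group), with a log2 difference of 0.93 (95% interval -0.56 to 2.42, SE 0.68) and limma's adjusted p = 0.983. With the choroid plexus marker score as a covariate the difference was 0.029. That score went partly with group, so the fit cannot separate choroid plexus content from group. Ttr, which encodes transthyretin, the main secreted protein of the choroid plexus, was at 34.5, 31400.2, 9405, 56.2 and 421 FPKM in sham 1 to 5 and at 32233, 72.7, 9079, 11836 and 17770.5 in TBI 1 to 5. The 7 libraries with the most Ttr stood in the same order for Itgb6, and the 4 with the least Ttr were also the 4 with the least Itgb6. In bulk RNA, fewer cells of a type and less RNA per cell cannot be told apart.

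The same 4 libraries, sham 1, sham 4, sham 5 and TBI 2, were the lowest for Itgb5, Itgb6 and Itgb8. This held for no other of the 21 genes (3 of 21, 14.3%) and for 2.64% of all genes and loci tested. Itgb1 and Itgb3, which can pair with alpha v as well, did not show it: the 4 lowest libraries were TBI 2, sham 1, sham 3 and TBI 4 for Itgb1, and sham 1, sham 2, sham 5 and TBI 4 for Itgb3. The steps were smaller for Itgb5 and Itgb8, whose highest library was 2.09-fold and 2.17-fold above the lowest. What part choroid plexus content had in these levels was not tested. In the fit with the choroid plexus score as a covariate, the log2 differences of Itgb5 and Itgb8 were 0.025 and -0.037. All 13 choroid plexus markers tested had higher means after TBI, so that fit cannot separate content from group.

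Itgb4, the partner of Itga6 in the hemidesmosomes that anchor epithelia, was at 0.699, 2.74, 2.56, 2.93 and 2.43 FPKM in sham libraries 1 to 5 and at 3.10, 1.22, 1.90, 1.82 and 2.55 FPKM in TBI libraries 1 to 5. Sham 1 stood well below the other sham libraries and TBI 2 was the lowest of the TBI group. Its log2 difference was -0.038 (95% interval -0.70 to 0.63, SE 0.30). Itgb3, the beta subunit of the platelet fibrinogen receptor, ran from 0.0755 to 0.617 FPKM with its highest value in sham 4. Itgb7, which lymphocytes pair with Itga4 or Itgae, ran from 0.0206 to 0.254 with its highest value in TBI 1, and both were too low to be tested.

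Summed over the 7 genes, beta subunit transcripts were at 59.5 ± 7.54 FPKM for sham against 65.8 ± 18.1 FPKM for TBI (SD, n = 5 per group), with the highest sum, 94.7, in TBI 1. Itgb1 accounted for 43.9% ± 7.72 of the sum in sham and 39.8% ± 3.19 after TBI. Itgb5 made up 26.3% ± 4.53 and 28.8% ± 0.577. Itgb8 made up 23.6% ± 3.86 and 24.0% ± 1.01. These 3 genes led the 7 in every library, while the share of Itgb6 ran from 0.0702% in sham 4 to 5.71% in TBI 1. Itgb2, which is not among the genes described here, is left out of the sum. It was at 26.6 FPKM in TBI 1 and at 2.59 to 6.14 in the other libraries.

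**Figure D2:**
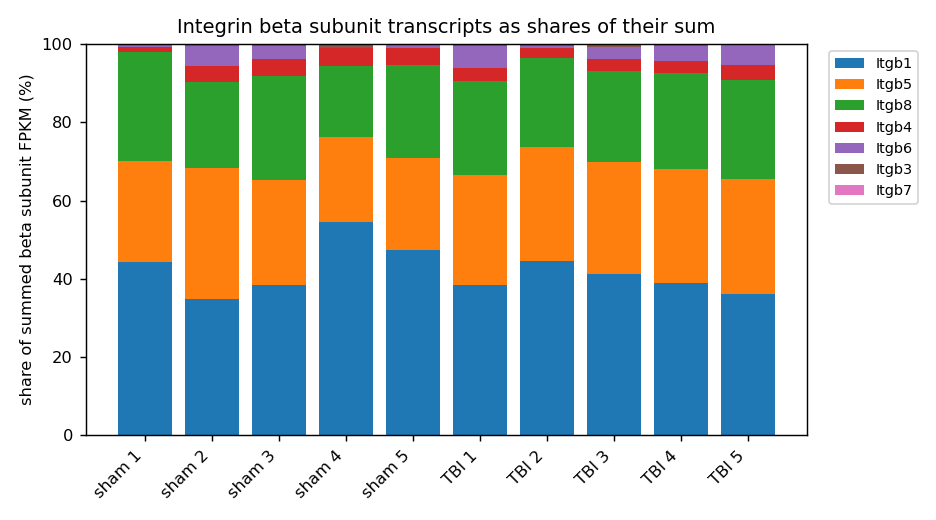
Share of each of the 7 integrin beta subunit genes analysed here, without Itgb2, in their summed FPKM (vertical axis, %) for the 5 sham and 5 TBI libraries, as stacked bars. Itgb1, Itgb5 and Itgb8 fill most of every bar, and the share of Itgb6 is thin in sham 1, sham 4, sham 5 and TBI 2.

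Among the alpha subunits analysed here, which do not include Itgav, those of laminin receptors were the most abundant. Itga6, which forms laminin receptors with Itgb1 or Itgb4, was at 10.4, 7.37, 10.7, 9.60 and 11.7 FPKM in sham libraries 1 to 5 and at 9.56, 10.3, 10.2, 9.53 and 9.22 FPKM in TBI libraries 1 to 5. Sham 5 was the highest and sham 2 the lowest, and the TBI libraries lay within the sham range. Its log2 difference was -0.011 (95% interval -0.26 to 0.24, SE 0.11), one of the narrowest intervals of the family, and became 0.0078 under upper quartile scaling. Itga7, a laminin receptor subunit best known from muscle, was at 6.40, 9.15, 6.44, 4.94 and 6.44 FPKM in sham libraries 1 to 5 and at 8.47, 7.09, 7.39, 7.38 and 5.75 FPKM in TBI libraries 1 to 5. The groups overlapped, with sham 4 lowest and sham 2 highest, and the log2 difference was 0.12 (95% interval -0.21 to 0.45, SE 0.15).

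Itgae, the alpha subunit that binds E-cadherin on lymphocytes within epithelia, had the smallest p of the 21 genes. It was at 3.11, 2.41, 2.63, 3.06 and 3.17 FPKM in sham libraries 1 to 5 and at 3.21, 3.40, 2.97, 3.83 and 3.24 FPKM in TBI libraries 1 to 5. All 5 TBI libraries lay above the sham mean, but TBI 3 lay below 3 of the sham libraries. The log2 difference was 0.18 (95% interval -0.050 to 0.42, SE 0.11), and limma's p was 0.111 before and 0.983 after adjustment. The lymphocyte markers, 10 of 11 matched and 3 tested, summed to 3.80 to 22.2 FPKM across sham and 7.88 to 18.6 across TBI libraries, and their part in this level was not tested. The library protocol in the labels keeps no strand, and the gene for the kinase Haspin overlaps Itgae in the RefSeq table, so reads of the pair cannot be told apart by strand. The same holds for Itga1 and Pelo, Itga4 and Cerkl, Itga7 and Mettl7b, Itgb7 and Znf740, Itgbl1 and Fgf14, and Itgb3bp and its neighbours Alg6 and Efcab7. Itgb1 overlaps a protein-coding gene without a name of its own in that table. These are overlaps of whole gene spans with protein-coding genes, and whether exons overlap was not examined. Noncoding genes or pseudogenes overlap further members, among them Itga8, Itga11 and Itgb6.

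Itga4, which with Itgb1 binds Vcam1 and fibronectin, was at 1.73, 0.843, 1.47, 1.31 and 1.11 FPKM in sham libraries 1 to 5 and at 1.22, 1.98, 1.72, 1.89 and 1.23 FPKM in TBI libraries 1 to 5. Sham 2 was the lowest library, and the log2 difference was 0.24 (95% interval -0.14 to 0.62, SE 0.17) with groups that overlapped. Itga8, whose main ligand is nephronectin, was at 3.12, 1.49, 1.32, 1.75 and 0.384 FPKM in sham libraries 1 to 5 and at 2.88, 2.05, 1.13, 2.71 and 0.807 FPKM in TBI libraries 1 to 5. It varied as much within sham, from 0.384 to 3.12, as over all libraries, and the log2 difference was 0.23 (95% interval -0.60 to 1.07, SE 0.38). Itga5, the fibronectin receptor subunit, was at 0.438, 1.10, 0.385, 1.59 and 0.478 FPKM in sham libraries 1 to 5 and at 1.09, 0.327, 0.659, 0.477 and 0.510 FPKM in TBI libraries 1 to 5. Sham 4, sham 2 and TBI 1 were high and the other 7 libraries lay between 0.327 and 0.659. The log2 difference was -0.17 (95% interval -0.78 to 0.44, SE 0.28).

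The collagen receptor subunits were low. Itga1 was at 1.09, 1.72, 1.31, 2.83 and 1.12 FPKM in sham libraries 1 to 5 and at 2.98, 0.989, 1.42, 1.12 and 1.59 FPKM in TBI libraries 1 to 5, with TBI 1 and sham 4 the highest. Its log2 difference of -0.0080 (95% interval -0.60 to 0.58, SE 0.27) became 0.0074 under upper quartile scaling. Itga11, a fibroblast collagen receptor, had the lowest fitted difference of the 21 genes. It was at 0.381, 1.21, 1.06, 1.13 and 0.692 FPKM in sham libraries 1 to 5 and at 0.533, 0.397, 0.675, 0.50 and 1.05 FPKM in TBI libraries 1 to 5. Sham 2, sham 4, sham 3 and TBI 5 were above 1 FPKM and the other 6 lay between 0.381 and 0.692, so the groups overlapped. The log2 difference was -0.29 (95% interval -0.78 to 0.20, SE 0.22), with limma's adjusted p = 0.983. Itga10 reached at most 0.153 FPKM. The leukocyte subunits were low as well. Itgal, the alpha subunit of the lymphocyte receptor for Icam1, ran from 0.153 to 0.773 FPKM, highest in TBI 3, and Itgad was listed at 0 in 8 libraries and reached 0.0273 in sham 4. None of these 3 was tested. The microglia and macrophage markers, 12 of 12 matched, were also highest in TBI 3, at 189 FPKM, against 105 to 138 in the other libraries.

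**Figure D3:**
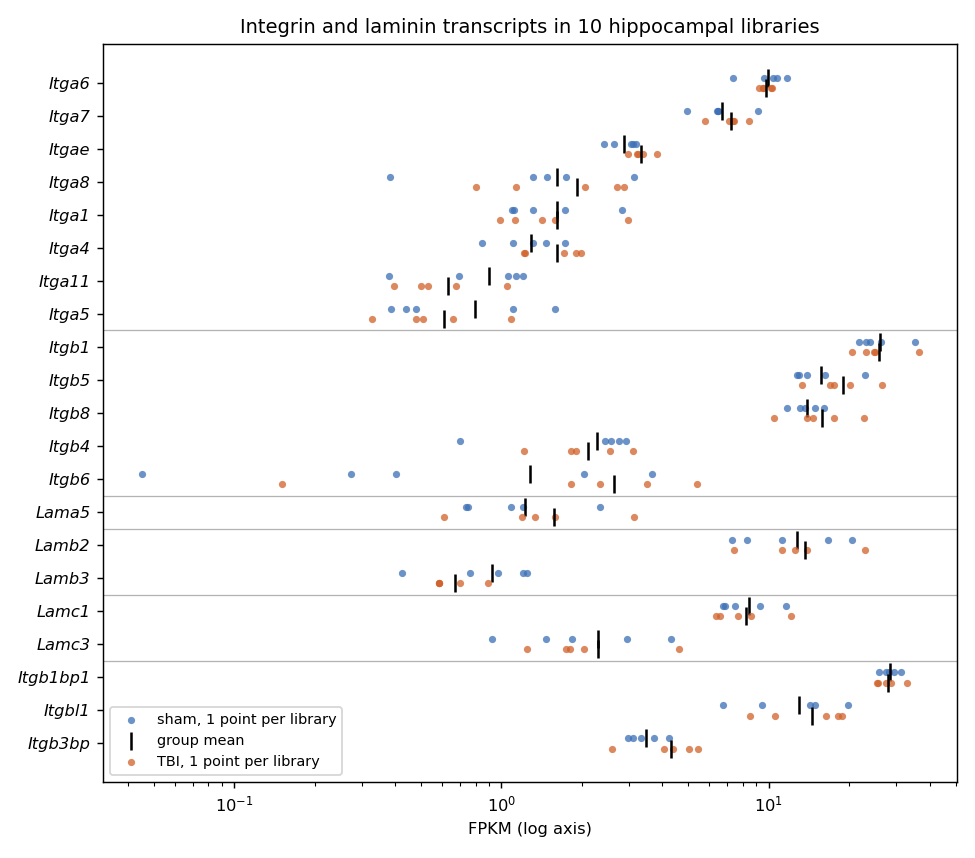
FPKM of the 21 tested genes (horizontal log axis) in each of 5 sham libraries (blue) and 5 TBI libraries (orange), with group means as black ticks and classes parted by grey lines. The 2 groups overlap in every gene, and Itgb6 spreads from 0.0452 to 5.41 FPKM.

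Of the laminin chains analysed here, Lamb2 and Lamc1 were the most abundant. Lamb2, the beta chain of vascular and pial basement membranes and of the neuromuscular synapse, was at 7.32, 20.6, 11.2, 16.7 and 8.27 FPKM in sham libraries 1 to 5 and at 23.0, 7.44, 12.5, 11.3 and 13.9 FPKM in TBI libraries 1 to 5. TBI 1, sham 2 and sham 4 were the highest, and both groups reached down to about the same level, in sham 1 and TBI 2. The group means were 12.8 ± 5.68 FPKM for sham against 13.6 ± 5.77 FPKM for TBI (SD, n = 5 per group), with a log2 difference of 0.10 (95% interval -0.62 to 0.82, SE 0.33). Lamc1, the gamma chain of most laminins, was at 7.5, 9.32, 6.86, 11.6 and 6.75 FPKM in sham libraries 1 to 5 and at 12.1, 8.55, 7.68, 6.56 and 6.34 FPKM in TBI libraries 1 to 5. TBI 1 and sham 4 were again the highest, and the log2 difference was -0.033 (95% interval -0.46 to 0.40, SE 0.19). Lamc3, a gamma chain found in fewer tissues, was at 1.83, 2.96, 0.921, 4.32 and 1.47 FPKM in sham libraries 1 to 5 and at 4.64, 1.24, 2.04, 1.81 and 1.74 FPKM in TBI libraries 1 to 5. The order of the 3 highest libraries, TBI 1, sham 4 and sham 2, was that of Lamc1. Its log2 difference was 0.022 (95% interval -0.77 to 0.82, SE 0.36) and became -0.042 under quantile normalization.

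Lama5, the alpha chain of endothelial and many epithelial basement membranes, was at 0.740, 2.33, 1.09, 1.21 and 0.751 FPKM in sham libraries 1 to 5 and at 3.13, 0.610, 1.34, 1.20 and 1.59 FPKM in TBI libraries 1 to 5. TBI 1 and sham 2 stood above the rest, while sham 4 did not. The log2 difference was 0.23 (95% interval -0.47 to 0.93, SE 0.32). Lama1, an alpha chain of pial and early embryonic membranes, had a mean just under that needed for testing and was at 0.323, 0.729, 0.164, 1.30 and 0.360 FPKM in sham libraries 1 to 5 and at 0.75, 0.345, 0.348, 0.337 and 0.346 FPKM in TBI libraries 1 to 5. Sham 4 was the highest, followed by TBI 1 and sham 2. Lamb3, a beta chain of the laminin that anchors skin, was low, at 0.971, 0.765, 0.425, 1.25 and 1.21 FPKM in sham libraries 1 to 5 and at 0.583, 0.586, 0.70, 0.583 and 0.890 FPKM in TBI libraries 1 to 5. Sham 3 was the lowest library, and 4 of the 5 TBI libraries lay below the other 4 sham values. The log2 difference was -0.26 (95% interval -0.67 to 0.16, SE 0.19).

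The promoter windows of the laminin chains that were highest in TBI 1 are shown because these chains shared their highest library. RefSeq windows on GRCr8, from 250 bases before to 50 bases after the annotated start, were at hand for 3 of these 4 genes, Lama5, Lamc1 and Lamc3, and are written 5′ to 3′ on the strand of the gene. Capitals mark GGGCGG or its reverse complement CCGCCC, the letters of a GC box.
Lama5, chr3:187695925-187696224, minus strand: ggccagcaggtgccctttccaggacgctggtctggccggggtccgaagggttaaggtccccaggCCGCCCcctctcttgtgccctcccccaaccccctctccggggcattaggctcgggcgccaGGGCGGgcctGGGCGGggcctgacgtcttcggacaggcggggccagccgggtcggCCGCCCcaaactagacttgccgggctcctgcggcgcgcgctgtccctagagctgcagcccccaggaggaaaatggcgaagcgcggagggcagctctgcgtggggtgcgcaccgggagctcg
Lamc1, chr13:68051937-68052236, minus strand: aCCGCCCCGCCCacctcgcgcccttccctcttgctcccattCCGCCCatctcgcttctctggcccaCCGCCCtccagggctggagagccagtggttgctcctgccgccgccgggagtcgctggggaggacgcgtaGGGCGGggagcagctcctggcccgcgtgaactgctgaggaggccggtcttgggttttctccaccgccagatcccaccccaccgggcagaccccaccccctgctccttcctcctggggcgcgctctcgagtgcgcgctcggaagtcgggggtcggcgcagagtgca
Lamc3, chr3:35562739-35563038, plus strand: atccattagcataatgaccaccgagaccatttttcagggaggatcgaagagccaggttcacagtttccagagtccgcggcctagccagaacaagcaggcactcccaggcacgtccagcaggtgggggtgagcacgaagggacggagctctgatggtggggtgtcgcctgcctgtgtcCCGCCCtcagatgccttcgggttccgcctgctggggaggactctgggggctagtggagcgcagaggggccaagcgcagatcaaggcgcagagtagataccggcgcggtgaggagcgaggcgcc
The motif occurred 4 times in the Lama5 window, 5 times in that of Lamc1, where 1 base is shared by a neighbouring pair, and 1 time in that of Lamc3. On either strand it was present in 33.1% of all 33469 windows of 300 bases, and in 9 of the 21 windows available for the 29 integrin and laminin genes. A match describes the letters only and shows no bound site.

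Several integrin and laminin genes had their highest value in the same library. TBI 1 was the highest of the 10 libraries for 11 of the 21 genes (52.4%), and for 22.1% of all genes and loci tested. It was the lowest library for 0 of the 21 and for 28.4% of all genes and loci. TBI 1 also had the lowest summed neuron markers (2068 FPKM) and hippocampal subfield markers (199 FPKM). Sham 2, sham 4 and TBI 1 were the 3 highest libraries for 6 of the 21 (28.6%), Itga1, Itga5, Itgb4, Lamb2, Lamc1 and Lamc3, and for 3.82% of all genes and loci. These are the 3 libraries richest in the meninges, fibroblast, pericyte and smooth muscle markers given above. Without these 3 libraries 20 of the 29 genes were tested. By limma 0 of them, and 576 of all 15947 genes and loci, had an unadjusted p under 0.05, with fewer libraries compared. The SD of log2(FPKM + 0.5) over the 10 libraries had a median of 0.35 for the 21 genes and 0.23 for all genes and loci. What part the vascular and meningeal content of a library had in these levels was not tested beyond the covariate fits. The endothelial score used as a covariate went partly with group, so that fit cannot separate content from group.

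**Figure D4:**
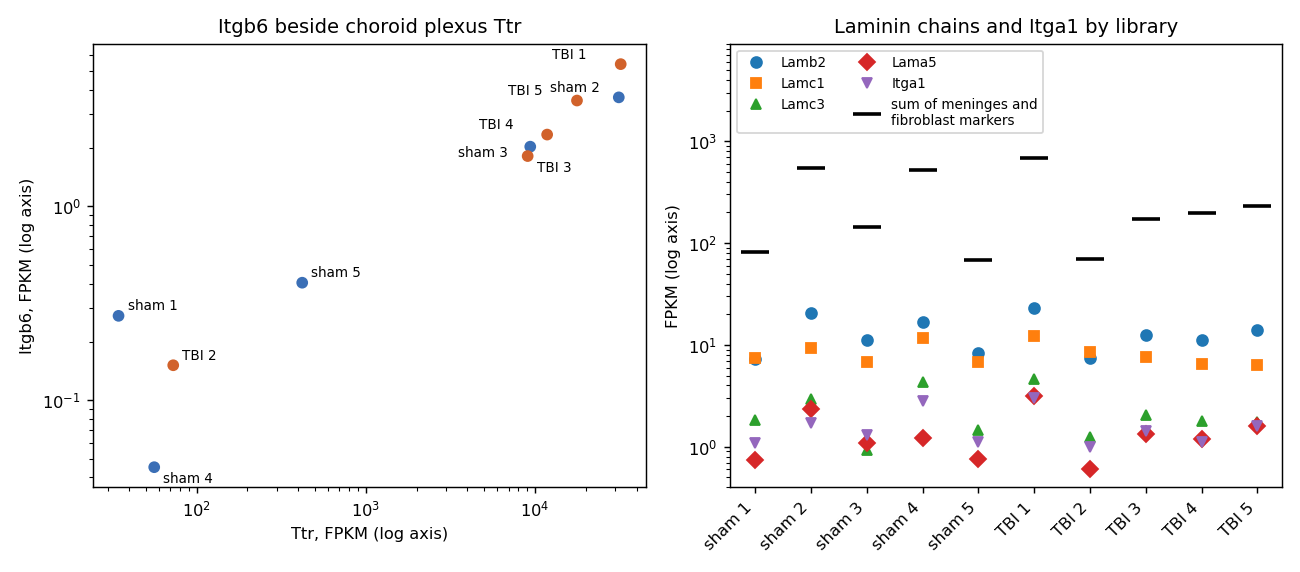
Left, Itgb6 against Ttr (both FPKM, log axes), 1 point per library, blue for sham and orange for TBI; right, FPKM (log axis) of 4 laminin chains and Itga1 in each library, with the summed FPKM of the meninges and fibroblast markers as black bars. The 4 libraries with the least Ttr have the least Itgb6, and the black bars are highest in TBI 1, sham 2 and sham 4. Igf2 alone holds 445, 377 and 244 FPKM of these 3 bars.

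The genes named for integrins without being subunits covered a wide range of levels. Itgb1bp1, an adaptor that binds the Itgb1 tail and restrains its activation, was summed over 2 loci and was at 29.4, 28.2, 27.5, 25.9 and 31.3 FPKM in sham libraries 1 to 5 and at 28.7, 33.0, 27.4, 25.5 and 25.7 FPKM in TBI libraries 1 to 5. The highest library was only 1.30-fold above the lowest, and the log2 difference was -0.024 (95% interval -0.22 to 0.17, SE 0.087), becoming 0.00080 under quantile normalization. Itgbl1, a secreted protein with repeats like those of beta subunits, was at 19.7, 14.9, 6.73, 14.3 and 9.43 FPKM in sham libraries 1 to 5 and at 10.5, 18.2, 16.4, 18.8 and 8.49 FPKM in TBI libraries 1 to 5. Both groups held high and low libraries, and the log2 difference was 0.17 (95% interval -0.49 to 0.84, SE 0.30). Itgb3bp, a centromere protein that also binds the Itgb3 tail, was at 2.98, 3.72, 3.12, 4.25 and 3.32 FPKM in sham libraries 1 to 5 and at 5.43, 4.07, 2.59, 5.04 and 4.39 FPKM in TBI libraries 1 to 5. TBI 3 was the lowest of all and each of the other TBI libraries lay above at least 4 of the 5 sham values, with a log2 difference of 0.25 (95% interval -0.14 to 0.63, SE 0.17). Itgb1bp2, a muscle protein, reached at most 0.285 FPKM and was not tested.

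Genes that work with integrins and laminins did not pass adjustment either. In the list of integrin activators and focal adhesion proteins 22 of 24 genes were matched and 21 tested. By limma 0 passed adjustment, with 14 means higher and 7 lower (median log2 difference 0.049). At an unadjusted p under 0.05 by limma, 1 was higher and 0 lower, against 1.41% and 1.51% of all genes and loci. The one was Rsu1, a partner of the ILK complex, at 12.9, 13.3, 13.1, 11.2 and 11 FPKM in sham libraries 1 to 5 and at 14.4, 14.8, 17.0, 12.5 and 14.9 FPKM in TBI libraries 1 to 5. TBI 4 lay within the sham range, the other TBI libraries lay above it, and the log2 difference was 0.25 (95% interval 0.034 to 0.46, SE 0.10). Parva, the actin-binding parvin of that complex, was at 7.65 ± 1.86 FPKM for sham against 10.9 ± 5.36 FPKM for TBI (SD, n = 5 per group), with 20.2 in TBI 1 and at most 9.62 elsewhere.

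Of the basement membrane proteins and integrin ligands 23 of 30 were matched and 20 tested. By limma 0 passed adjustment, with 11 means higher and 9 lower (median 0.031). At an unadjusted p under 0.05 by limma, 2 were higher and 0 lower, against 1.41% and 1.51% of all genes and loci. Tgfbi, a matrix ligand of several integrins, was at 2.28, 3.77, 2.50, 3.23 and 1.88 FPKM in sham libraries 1 to 5 and at 8.07, 3.73, 3.64, 3.10 and 3.63 FPKM in TBI libraries 1 to 5. TBI 1 was far the highest and the other TBI libraries lay within the sham range. Spp1, osteopontin, a ligand of alpha v integrins made by phagocytes, was at 0.357, 0.695, 0.769, 1.41 and 1.46 FPKM in sham libraries 1 to 5 and at 4.58, 1.16, 11.2, 1.13 and 1.5 FPKM in TBI libraries 1 to 5. TBI 3 and TBI 1 were high, TBI 5 lay just above the highest sham library, and TBI 3 was also highest in the microglia and macrophage markers.

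Of 19 other laminin and matrix receptors 18 were matched and 17 tested (10 means higher, 7 lower, median 0.057). By limma 0 passed adjustment and 0 had an unadjusted p under 0.05, against 2.91% of all genes and loci. Rpsa, a ribosomal protein also known as the laminin receptor precursor, was at 111 ± 11.2 FPKM for sham against 97.1 ± 7.54 FPKM for TBI (SD, n = 5 per group), and utrophin (Utrn), which links dystroglycan to actin, at 9.99 ± 1.09 FPKM for sham against 8.59 ± 2.01 FPKM for TBI. Of 11 counter-receptors that integrins bind on other cells 11 were matched and 8 tested, again with 0 past adjustment and 0 at an unadjusted p under 0.05 by limma (3 means higher, 5 lower, median -0.064). Vcam1, the endothelial ligand of Itga4, was at 12.0 ± 0.770 FPKM for sham against 10.7 ± 0.959 FPKM for TBI, and the junction protein Jam3 at 22.1 ± 1.36 FPKM for sham against 26.3 ± 4.86 FPKM for TBI.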

How the data were processed

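Poly-A RNA of 10 hippocampal libraries was sequenced on an Illumina instrument, as the labels' protocols state. The deposited table holds the authors' FPKM for 25269 loci. The submitters' processing notes name Cufflinks, Cuffdiff, Bowtie, Bowtie2, TopHat and TopHat2, and the rn5 build. Their roles and versions, the annotation and any filter: not given in the sources used here. All 30 loci of the integrin and laminin genes had the status OK. Loci sharing a symbol were added up per library (23824 rows, with 7177 unnamed loci kept singly). limma 3.58.1 (R 4.3.3) was run with a mean trend on log2(FPKM + 0.5), for the 16194 rows with a mean of at least 0.5, two-sided, with Benjamini-Hochberg adjustment over all of them. Depth is unknown, so no count test was run and no counting interval is given.

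The members and gene lists were chosen with earlier results of these data known. Values in every library are given for members without overlap or with p under 0.05, the 4 with the smallest p each way, the 2 most abundant of each class and the 4 with the largest SD; some other members are shown likewise. The values of 1 untested member are not reported here. Lists are described by counts and their 2 genes of smallest p. On simulated data for this comparison (16194 rows, 200 changed, 5 draws) the fit recovered 74.6% of 2-fold and 94.2% of 4-fold changes, with 6.38% of calls false. The simulated rows varied independently, without the differences in tissue markers that many rows of a library share. Changed rows were drawn from all rows, and the 21 tested genes varied more (median SD 0.35 against 0.23 on the log2 scale). These rates therefore do not give the chance of finding a change in an integrin or laminin gene. Alternatives covered pseudocount, filter, scaling, variance model, replicate block, summing, tissue scores as covariates, libraries left out and an exact permutation test.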

Additional observations from a re-analysis of the deposited data

Results flagged for a closer look

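Among the 42 sets of 5 libraries examined (21 genes in 2 groups), 1 held a library far from the rest of its group, where chance would give about 1 in 20. Itgb4 was at 0.699 FPKM in sham 1, while the other 4 sham libraries lay between 2.43 and 2.93. The gap to the nearest library was 0.851 of the group's range on the log2 scale, above the limit of 0.710. Without sham 1 the log2 difference of Itgb4 was -0.32.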

How the results depend on the processing

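Over 25 alternatives, 0 integrin or laminin genes passed adjustment in any. The smallest possible p of the exact permutation test, 0.00794, passes adjustment only if very many rows reach it. The 0 from that test therefore adds little. By limma, 0 of the 16194 rows passed in the fit reported, against 2 of all rows without sham 4 and 2 with sham 2, sham 4 and TBI 1 left out. Leaving out each library in turn gave 0 to 1 of these genes at an unadjusted p under 0.05 (338 to 773 of all rows), 0 to 1 without overlap (128 to 268 of all rows) and a median log2 difference of -0.0040 to 0.17. The single genes were Itga11 without sham 1, Itgb5 without sham 2, Lamb3 without sham 3, Itgb6 without TBI 2 and Itgb3bp without TBI 3; without TBI 3 the groups did not overlap for Itgae. At an unadjusted p under 0.05, array weights gave 1 gene (Itgae) and 1318 rows, the choroid plexus score as covariate 1 gene (Itgae) and 313 rows, the meninges score 786 rows, and the endothelial score 4 genes (Itga1, Itgb3bp, Itgb5 and Lamb2) and 1601 rows. With sham 2, sham 4 and TBI 1 left out, 1 gene (Itga6) and 725 rows did not overlap; fewer libraries were compared there. The cause of the other shifts was not tested. Of the 12 endothelial markers tested, 9 had lower and 3 higher means after TBI (median log2 difference -0.23), and 0 passed adjustment by limma. At an unadjusted p under 0.05 by limma, 2 of them were lower and 0 higher, against 1.51% and 1.41% of all rows. The groups did not overlap for 1, Cldn5 (log2 difference -0.46), against 0.482% of all rows. All 13 choroid plexus markers tested had higher means (median 1.94), and 0 passed adjustment. Both scores used as covariates thus went partly with group.

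Whether the numbers 1 to 5 pair the libraries was not settled. Same-numbered deviations had correlations of -0.38 to 0.31, and of the sham libraries only sham 5 was most like the TBI library of its own number. Such correlations over all rows tested cannot exclude a pairing. The replicate block gave 0 genes and 672 rows at an unadjusted p under 0.05, against 0 genes and 472 rows in the fit reported.

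The sign of the log2 difference held in 8 of the 21 genes over the alternatives run for them. Of the other 13 it changed for Itgb8 and Lamb2 with array weights (-0.016 and -0.018), for Itga6, Itgb1bp1, Itgb8, Lama5, Lamb2 and Lamc3 with the choroid plexus score (0.060, 0.024, -0.037, -0.11, -0.22 and -0.072), for Itga1, Itga5, Itgb1, Itgb4 and Lamc1 with the endothelial score (0.28, 0.11, 0.15, 0.22 and 0.15), for Itga1 and Itgb1 with the meninges score (0.036 and 0.013), for Itgb1, Itgb1bp1 and Lamc3 with quantile normalization (0.015, 0.00080 and -0.042), for Itga1, Itga6 and Itgb1 with upper quartile scaling (0.0074, 0.0078 and 0.0086), and for Itga1, Itgb4, Itgb8 and Lamc1 with sham 2, sham 4 and TBI 1 left out (0.077, 0.074, -0.033 and 0.038). With 1 library left out, the differences ran from -0.32 to 0.10 for Itgb4, -0.17 to 0.084 for Lamc1, -0.029 to 0.34 for Itgbl1, -0.044 to 0.46 for Itga8, -0.14 to 0.10 for Itgb1, -0.20 to 0.17 for Itga1, -0.11 to 0.049 for Itga6, -0.00010 to 0.43 for Lama5, -0.22 to 0.25 for Lamc3, -0.083 to 0.011 for Itgb1bp1, -0.31 to 0.021 for Itga5 and -0.10 to 0.29 for Lamb2. Depth is unknown, so what it limits at genes of low level could not be measured.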
